A study of Mus musculus with 34 samples.

Results

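The genes described here are Kl, Vdr, Pth1r, Cyp27b1 and Cyp24a1, the 5 listed genes of klotho, vitamin D and mineral control, out of 23509 genes counted in the kidney. They were chosen by name, all 5 were found in the count tables, and all 5 passed the filter on low counts that left 15644 genes. Polyadenylated RNA from whole kidneys was sequenced from 34 mice of the C57BL6 strain, with kidneys taken on postnatal day 28 (P28). The PBS group (n = 11) and the RGLS4326 group (n = 11) were Pkd2-KO mice, in which floxed Pkd2 alleles are removed by a Cre recombinase driven by the Pkhd1 promoter, so that deletion is limited to the tubule cells that use this promoter. Both groups were injected subcutaneously on P10, P11, P12 and P19, with PBS or with RGLS4326 at 20 mg per kg. The UNT group (n = 12) were untreated, non-transgenic wildtype mice of the same strain, which received no injection and carried no Cre. PBS vs UNT therefore compares genotype and injection together. RGLS4326 is a short, chemically modified oligonucleotide that binds the seed of the microRNA miR-17, and RGLS4326 vs PBS asks what it changes in cystic kidneys. Nothing in the labels gives litter, sex or cage.

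As background, the kidney tubule is where the hormones of mineral balance act and where active vitamin D is made. The enzyme encoded by Cyp27b1 converts the storage form of vitamin D to the active hormone calcitriol, and the enzyme encoded by Cyp24a1 breaks both forms down. Vdr encodes the nuclear receptor that calcitriol activates, Pth1r the receptor for parathyroid hormone, and Kl encodes klotho, the co-receptor that lets fibroblast growth factor 23 (FGF23) act on tubule cells. Parathyroid hormone is known to raise Cyp27b1, FGF23 to lower it, and calcitriol to raise Cyp24a1.

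Since the drug acts on miR-17, the mature microRNA and the matches to its seed in the 5 genes are shown first. The sequence comes from RefSeq on GRCm38.p6 (chr14:115043684-115043706, plus strand), and the capitals mark bases 2 to 8, the seed.
mmu-miR-17-5p: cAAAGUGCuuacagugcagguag
For each gene the longest 3′UTR that GENCODE M21 annotates was searched on the transcript strand for GCACTTT, the complement of the seed, and for CACTTTA, the complement of bases 2 to 7 followed by A. These patterns overlap in the 8-base match GCACTTTA. Only Cyp24a1 held a match among the 5 genes, at 2 places in a 3′UTR of 1644 bases. None was found in Kl (1963 bases), Vdr (2947 bases), Cyp27b1 (825 bases) or Pth1r (169 bases). Of 14193 tested genes with a 3′UTR, 3011 (21.2%) held a match of either kind. The matches in Cyp24a1, on the minus strand of chromosome 2 and read 5′ to 3′ from the transcript, are in capitals below with their neighbours. The first lies at chr2:170484110-170484116 and the second at chr2:170482801-170482807 (GRCm38), both in the 3′UTR.
Cyp24a1 first match: cgccgcccacaaCACTTTAccacgtgttta
Cyp24a1 second match: cccatgatcaaGCACTTTtaaccgctgacc
A match is a description of the sequence, and binding by miR-17 was not measured. None of the 6 RefSeq promoter windows of Kl, Vdr, Pth1r and Cyp27b1, each of 300 bases, held the vitamin D response element-like direct repeat on either strand. That repeat is a pair of hexamers with a spacer of 3 bases and was found in 0.0396% of 32851 promoter windows. The promoter of Cyp24a1 was not analysed here.

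The 5 genes lie apart in the genome. In GENCODE M21 on GRCm38, Kl spans chr5:150952607-150993817 on the plus strand and Cyp27b1 chr10:127048250-127053006 on the plus strand. Vdr (chr15:97854425-97910630), Pth1r (chr9:110722085-110747145) and Cyp24a1 (chr2:170482708-170497145) lie on the minus strand. Exons of Pth1r share 95 bases with Myl3, and exons of Cyp24a1 share 83 bases with Pfdn4, in each case on the opposite strand. The strand setting of the counting was not given in the sources used here, so the counts of both genes are uncertain to that extent.

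Each library held from 17603122 to 54981992 reads in genes. Levels are in CPM, counts divided by library size, for which edgeR's TMM factors (a trimmed mean of log ratios) were used. The deleted gene Pkd2, at 274 ± 34.4 CPM in UNT kidneys (SD, n = 12), was at 160 ± 32.2 in PBS (n = 11) and 210 ± 23.8 in RGLS4326 kidneys (n = 11). These are reads over the whole gene of a whole kidney, so they do not measure the deleted exons or the share of deleted cells. The paper names Pkd2 as a direct target of miR-17 and reports more of its RNA after RGLS4326. The difference in Pkd2 between PBS and RGLS4326 kidneys is given here without a test. The numbering in the table names falls into 3 sets of 11 or 12 libraries, each holding all groups, and every change below was also computed within sets. The share of reads that fell in no gene, out of uniquely mapped reads, ranged from 12.94% to 14.87% in UNT, from 6.08% to 10.96% in PBS and from 5.82% to 14.59% in RGLS4326 libraries.

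Kl, Vdr and Pth1r, the receptor genes of the axis, were all far lower in Pkd2-KO kidneys than in UNT kidneys, whereas the enzyme genes Cyp27b1 and Cyp24a1 did not pass the test in either direction. Kl fell to 19.7% of its UNT level in PBS kidneys, Pth1r to 30.8% and Vdr to 39.1%. RGLS4326 kidneys had higher Kl and Vdr than PBS kidneys, by 1.35-fold and 1.18-fold. Both calls were lost in the fit that adjusted for the percentage of no-gene reads, in which the log2 changes were 0.38 for Kl (edgeR adjusted p = 0.122) and 0.27 for Vdr (0.124) beside 0.43 and 0.24 without it. They were also lost without set 1 of the libraries, at 0.32 for Kl (edgeR adjusted p = 0.118) and 0.11 for Vdr (0.412), and that of Vdr also in 9 of 34 fits without a single mouse. All 3 receptor genes stayed well under the UNT level. In whole kidney RNA, fewer cells that make a transcript and less of it per cell cannot be told apart.

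Klotho showed the widest gap. Kl ranged from 784.7 to 1113.5 CPM in UNT kidneys (median 1020.7), from 116.5 to 299.0 in PBS kidneys (median 209.5) and from 227.6 to 306.2 in RGLS4326 kidneys (median 249.3). Every Pkd2-KO mouse lay below every UNT mouse, and every RGLS4326 mouse lay above the PBS median, while the PBS and RGLS4326 ranges overlapped. The means were 991 ± 94.6 CPM (SD, n = 12), 195 ± 63.0 (n = 11) and 263.5 ± 31.1 (n = 11). On the log2 scale Kl changed by -2.35 (SE 0.13) in PBS vs UNT, with an adjusted p of 2.19e-18 from the quasi-likelihood test of edgeR. It changed by 0.43 in RGLS4326 vs PBS (SE 0.12, edgeR adjusted p = 0.0105) and in RGLS4326 vs UNT by -1.91 (SE 0.13, edgeR adjusted p = 5.87e-16). The PBS mice spread more than either other group, with 2.57-fold between the highest and the lowest mouse against 1.35-fold among RGLS4326 mice and 1.42-fold among UNT mice.

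Vdr, the calcitriol receptor, followed with a smaller change. It ranged from 217.4 to 290.6 CPM in UNT kidneys (median 250.8), from 64.9 to 133.2 in PBS kidneys (median 102.4) and from 85.9 to 137.6 in RGLS4326 kidneys (median 115.6). No Pkd2-KO mouse reached the lowest UNT mouse, and 10 of 11 RGLS4326 mice lay above the PBS median. The log2 change was -1.35 (SE 0.09, edgeR adjusted p = 4.83e-16) in PBS vs UNT and -1.11 (SE 0.09, edgeR adjusted p = 1.15e-13) in RGLS4326 vs UNT. The change in RGLS4326 vs PBS was 0.24 (SE 0.09, edgeR adjusted p = 0.0369).

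Pth1r, the parathyroid hormone receptor, was separated from UNT in the same way. It ranged from 462.9 to 705.3 CPM in UNT (median 615.2), from 117.2 to 251.1 in PBS (median 182.3) and from 179.4 to 259.8 in RGLS4326 kidneys (median 225.2). Again no Pkd2-KO mouse overlapped the UNT mice. The log2 change was -1.70 (SE 0.11, edgeR adjusted p = 1.26e-16) in PBS vs UNT and -1.47 (SE 0.11, edgeR adjusted p = 7.74e-15) in RGLS4326 vs UNT. The value of 0.23 (SE 0.11) in RGLS4326 vs PBS did not pass the test (edgeR adjusted p = 0.0871), although 10 of 11 RGLS4326 mice were above the PBS median.

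**Figure D1:**
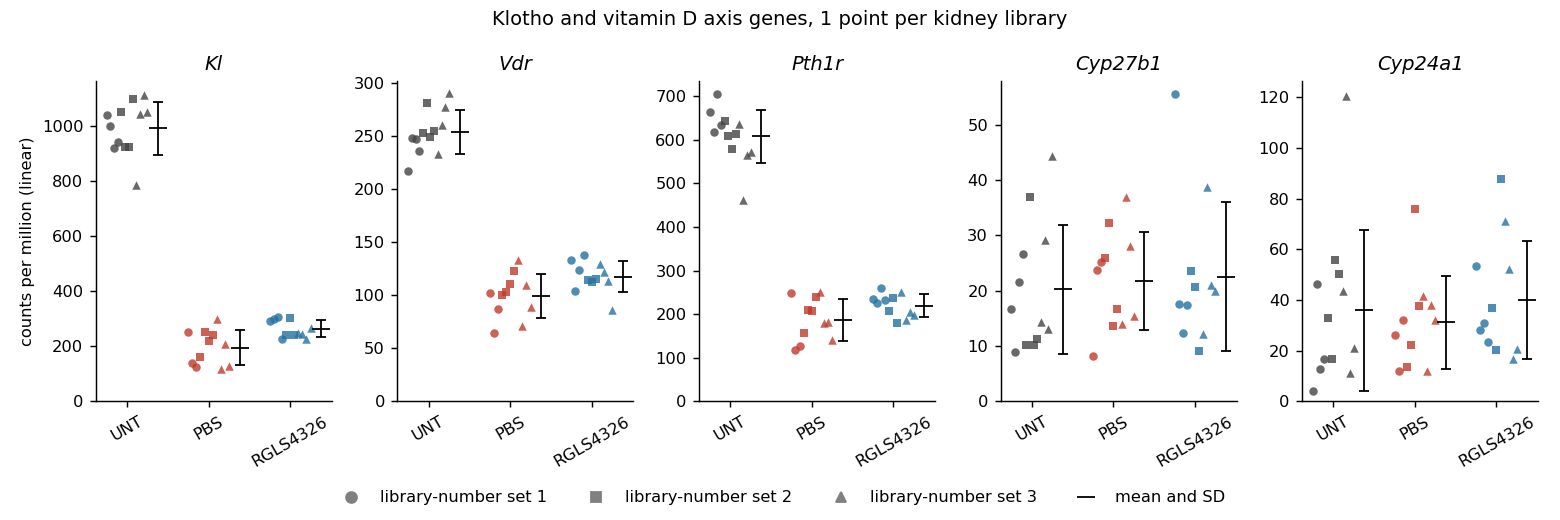
Level of each gene in CPM (linear axes from 0, a separate scale for each gene) in 12 UNT, 11 PBS and 11 RGLS4326 kidneys, 1 point per mouse, with the marker shape giving the library-number set and the bar giving mean and SD. Kl, Vdr and Pth1r of all Pkd2-KO mice sit below all UNT mice, while the ranges of Cyp27b1 and Cyp24a1 overlap between all 3 groups.

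Cyp27b1, the enzyme gene of calcitriol synthesis, had ranges that overlapped between all groups. It ran from 8.9 to 44.3 CPM in UNT kidneys (median 15.6), from 8.2 to 36.9 in PBS kidneys (median 23.8) and from 9.1 to 55.5 in RGLS4326 kidneys (median 19.9). The highest value was in an RGLS4326 mouse and the lowest in a PBS mouse. The log2 change was 0.11 with a 95% interval from -0.47 to 0.69 in PBS vs UNT (edgeR adjusted p = 0.731). For RGLS4326 vs PBS it was 0.05 with an interval from -0.55 to 0.65 (edgeR adjusted p = 0.912). In RGLS4326 vs UNT it was 0.16 with an interval from -0.43 to 0.74 (edgeR adjusted p = 0.626). The PBS vs UNT interval leaves room for levels from 0.720-fold to 1.62-fold of UNT, so a moderate change in either direction was not detectable here.

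Cyp24a1, the enzyme gene of calcitriol breakdown, varied most of the 5. It ranged from 4.2 to 120.6 CPM in UNT kidneys (median 27.1), from 11.9 to 76.0 in PBS kidneys (median 32.2) and from 16.8 to 87.7 in RGLS4326 kidneys (median 31.0). Both the lowest and the highest mouse of the study were UNT mice, 28.6-fold apart. The log2 change was -0.21 with a 95% interval from -0.99 to 0.57 in PBS vs UNT (edgeR adjusted p = 0.619). It was 0.36 with an interval from -0.43 to 1.16 in RGLS4326 vs PBS (edgeR adjusted p = 0.476), and 0.15 with an interval from -0.62 to 0.93 in RGLS4326 vs UNT (edgeR adjusted p = 0.721). This is the gene with the seed matches printed above, and its RGLS4326 vs PBS interval runs from 0.741-fold to 2.23-fold.

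The enzyme genes differed from the receptor genes in how widely mice of the same group varied. The within-group SD of log2(CPM + 1) was 0.97 for Cyp24a1 and 0.69 for Cyp27b1, above 99.8% and 99.3% of the 15644 tested genes. It was 0.30 for Kl, 0.26 for Pth1r and 0.22 for Vdr, beside a median of 0.20 over all tested genes. The lowest count of Cyp24a1 in any library was 131 and that of Cyp27b1 was 210. The difference log2 Cyp24a1 minus log2 Cyp27b1 ran from -1.76 to 2.35 in UNT, from -1.55 to 2.40 in PBS and from -0.31 to 3.13 in RGLS4326 mice. It was above 0 in 6 of 12, 7 of 11 and 8 of 11 mice. These levels are not corrected for exon length, 3560 bases for Cyp24a1 and 2574 for Cyp27b1, so 0 does not mark equal numbers of transcripts.

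Compared per length of exon, the order of levels in UNT kidneys was Pth1r, Kl, Vdr, Cyp24a1 and Cyp27b1. The values were 208 ± 20.7, 106 ± 10.1, 44.9 ± 3.73, 10.1 ± 8.90 and 7.88 ± 4.53 reads per kilobase of exon in CPM units (RPKM, SD, n = 12). On this scale the first 3 did not overlap between mice, whereas both enzyme genes did. Per kilobase of the longest coding transcript Pth1r in UNT kidneys, from 200.6 to 305.7, and Kl, from 153.3 to 217.6, overlapped. In PBS kidneys (n = 11) Pth1r stayed highest at 64.1 ± 16.5 RPKM, and Kl at 20.9 ± 6.76 and Vdr at 17.6 ± 3.62 overlapped. Cyp24a1 at 8.77 ± 5.15 and Cyp27b1 at 8.47 ± 3.45 RPKM overlapped as well. Their highest PBS mice, at 21.34 and 14.32 RPKM, were above the lowest of Kl (12.49) and Vdr (11.48). In RGLS4326 kidneys (n = 11) the levels were 75.2 ± 9.01 RPKM for Pth1r, 28.2 ± 3.33 for Kl, 20.8 ± 2.56 for Vdr, 11.3 ± 6.52 for Cyp24a1 and 8.76 ± 5.22 for Cyp27b1, and the order was the same. The exon length of Kl, 9328 bases, includes a transcript with a retained intron, and against its coding transcript of 5118 bases Kl came to 38.1 ± 12.3 per kilobase in PBS kidneys. On that scale Kl, from 22.77 to 58.42, and Pth1r, from 50.79 to 108.8, overlapped in PBS kidneys too.

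These changes are read against very broad changes across the genome. In PBS vs UNT, 82.1% of all tested genes passed the test, 43.1% higher and 39.0% lower, and 42.5% had groups that did not overlap. Of the 5 genes, 3 were lower, none higher, and the same 3 did not overlap. In RGLS4326 vs PBS, 33.8% of tested genes passed, 15.3% higher and 18.5% lower, beside 2 of the 5 genes, both higher, and 0.0639% had groups that did not overlap, none of the 5 among them. In RGLS4326 vs UNT, 77.7% passed, 40.8% higher and 36.9% lower, and 36.7% did not overlap, beside 3 of the 5 genes, all lower and not overlapping. The shares called among the 5 genes were near those of the whole table, and these counts are no result about the 5 genes. Ranked by p in PBS vs UNT, Kl stood 830th, Pth1r 1391st and Vdr 1614th of 15644 genes. Both comparisons with Pkd2-KO mice on PBS share those 11 PBS mice, so a chance low or high value there moves both.

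**Figure D2:**
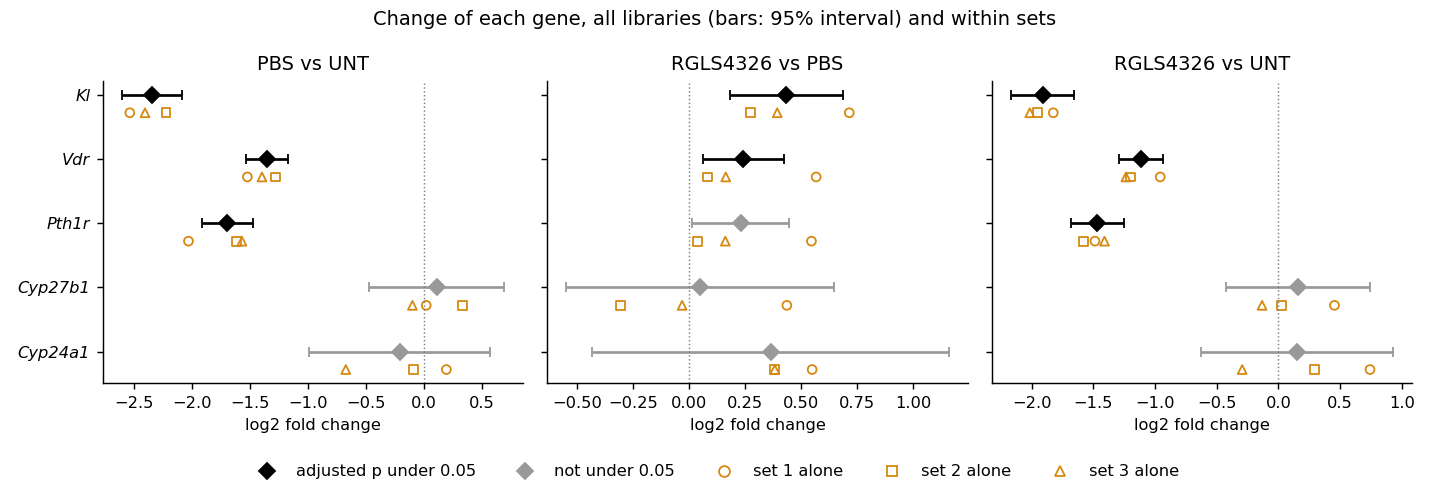
Log2 fold change of each gene in the 3 comparisons (horizontal axes, a separate scale for each), as diamonds with 95% intervals from all 34 libraries, black where the edgeR adjusted p was under 0.05, with open symbols for each set of libraries alone. The receptor genes lie left of 0 in both comparisons with UNT in every set, and in RGLS4326 vs PBS set 1 lies farthest right for Kl, Vdr and Pth1r.

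The fall of the receptor genes in PBS vs UNT held within each set. The RGLS4326 vs PBS differences had the same direction in each set for Kl and Vdr but no call within any set. Kl changed by 0.71 (edgeR adjusted p = 0.0933) in set 1 alone, 0.27 (0.208) in set 2 and 0.39 (0.370) in set 3. Vdr changed by 0.57 (edgeR adjusted p = 0.0723), 0.08 (0.481) and 0.16 (0.608). Without set 1 the Kl change was 0.32 (edgeR adjusted p = 0.118) and the Vdr change 0.11 (0.412), and without set 2 the Vdr change was 0.34 (0.0600). The difference between sets itself did not pass for any of the 5 genes, the lowest adjusted p being 0.462 for Pth1r in PBS vs UNT. By edgeR's F test 0.00% of all tested genes passed for PBS vs UNT and for RGLS4326 vs PBS, and 0.0128% for RGLS4326 vs UNT. Before adjustment 2858, 1126 and 2396 genes had a p under 0.05. The share of reads in no gene was higher in RGLS4326 than in PBS libraries, above all in set 2 (13.86% to 14.59% against 6.54% to 10.96%), and in a fit that adjusted for this share Kl was at 0.38 (edgeR adjusted p = 0.122) and Vdr at 0.27 (0.124). Its part in the result was not tested beyond that fit.
Leaving out single mice kept Kl past the threshold in RGLS4326 vs PBS in all 34 fits (log2 0.38 to 0.51), whereas Vdr, at 0.19 to 0.29, lost its call in 9 of 34 fits. Those were the fits without PBS mouse 2, 3, 4, 9 or 11 or without RGLS4326 mouse 1, 4, 8 or 9, with edgeR adjusted p from 0.0510 to 0.0728. Pth1r passed without PBS mouse 1, 7 or 8.

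Among PBS mice the receptor genes moved together, and against Lcn2, which encodes the injury protein lipocalin-2. Lcn2 was at 3.52 ± 0.875 CPM in UNT (n = 12), 1061 ± 396 in PBS (n = 11) and 610.6 ± 219.6 in RGLS4326 kidneys (n = 11). Correlations were computed on log2(CPM + 1) for 15 pairs in each of 3 groups, 45 in all, with two-sided permutation tests (100000 resamples) adjusted over the 45. Of these 6 passed, all of them among the 15 in PBS mice. By rank, 2 further pairs passed, Cyp24a1 with Vdr in PBS mice (rho = 0.80, permutation p = 0.0047, adjusted 0.032) and, with the opposite sign, Vdr with Pth1r in UNT mice (rho = -0.76, permutation p = 0.0056, adjusted 0.032). Kl was lower in PBS mice with more Lcn2 (r = -0.96, permutation p = 5e-05, adjusted 0.0022, rho = -0.85, permutation p = 0.0015, adjusted 0.017). So were Pth1r (r = -0.91, permutation p = 0.00027, adjusted 0.0049, rho = -0.91, permutation p = 0.00028, adjusted 0.013) and Vdr (r = -0.85, permutation p = 0.00033, adjusted 0.0049, rho = -0.88, permutation p = 0.00065, adjusted 0.014). Among the receptor genes, Kl rose with Pth1r (r = 0.85, permutation p = 0.0015, adjusted 0.014, rho = 0.87, permutation p = 0.00094, adjusted 0.014). Kl also rose with Vdr (r = 0.84, permutation p = 0.00086, adjusted 0.0097, rho = 0.80, permutation p = 0.0050, adjusted 0.032), and Vdr with Pth1r (r = 0.77, permutation p = 0.0053, adjusted 0.040, rho = 0.83, permutation p = 0.0029, adjusted 0.026).
Without the 2 mice farthest from the median of the first gene named (Lcn2 in the pairs with Lcn2), these 6 correlations ranged in size from 0.79 to 0.96 with the same signs. By the same step Cyp27b1 with Pth1r in RGLS4326 mice went from -0.08 to -0.87 (permutation adjusted p = 0.013). Of the pairs that passed only by rank, Cyp24a1 with Vdr in PBS mice went from r = 0.71 to 0.36 (permutation adjusted p = 0.64). Vdr with Pth1r in UNT mice went from -0.48 to -0.39 (permutation adjusted p = 0.63). After centring on set means the Lcn2 correlations in PBS mice were -0.96 for Kl, -0.91 for Pth1r and -0.86 for Vdr. In UNT mice the same step took Vdr from -0.27 to -0.83, near its PBS value, Kl from -0.20 to -0.29 and Pth1r from -0.078 to 0.29. A set held 3 or 4 PBS mice, too few for a correlation of its own. The largest gap between neighbouring PBS mice in Lcn2 lay between 985.8 and 1331.0 CPM, with 6 mice below it, and among those 6 the correlation with Lcn2 was -0.95 for Kl, -0.88 for Pth1r and -0.63 for Vdr. Values from the same library share its scaling and its mixture of cells.

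In RGLS4326 mice the same pairs did not pass. The correlation with Lcn2 was -0.54 for Kl (permutation p = 0.096, adjusted 0.35, rho = -0.45, permutation p = 0.17, adjusted 0.41, n = 11). For Vdr it was 0.68 (permutation p = 0.024, adjusted 0.13, rho = 0.58, permutation p = 0.064, adjusted 0.26), the opposite sign to that in PBS mice, falling to 0.37 without the 2 mice farthest from the Lcn2 median. For Pth1r it was 0.11 (permutation p = 0.75, adjusted 0.85, rho = 0.11, permutation p = 0.75, adjusted 0.97), also of opposite sign to PBS mice. After centring on set means the values in RGLS4326 mice were -0.84 for Kl, 0.69 for Vdr and -0.16 for Pth1r, so Kl then lay nearer to its value in PBS mice. Uncentred, Kl with Pth1r was at r = 0.515 in RGLS4326 and -0.33 in UNT mice. Vdr with Pth1r was at 0.43 and -0.48, and Kl with Vdr at -0.18 and 0.35. None of these r values passed (permutation adjusted p from 0.35 to 0.81). Whether the groups differ in these correlations was not tested. The enzyme genes correlated at -0.53 with each other in PBS mice (permutation p = 0.090, adjusted 0.35, rho = -0.48, permutation p = 0.14, adjusted 0.37).

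**Figure D3:**
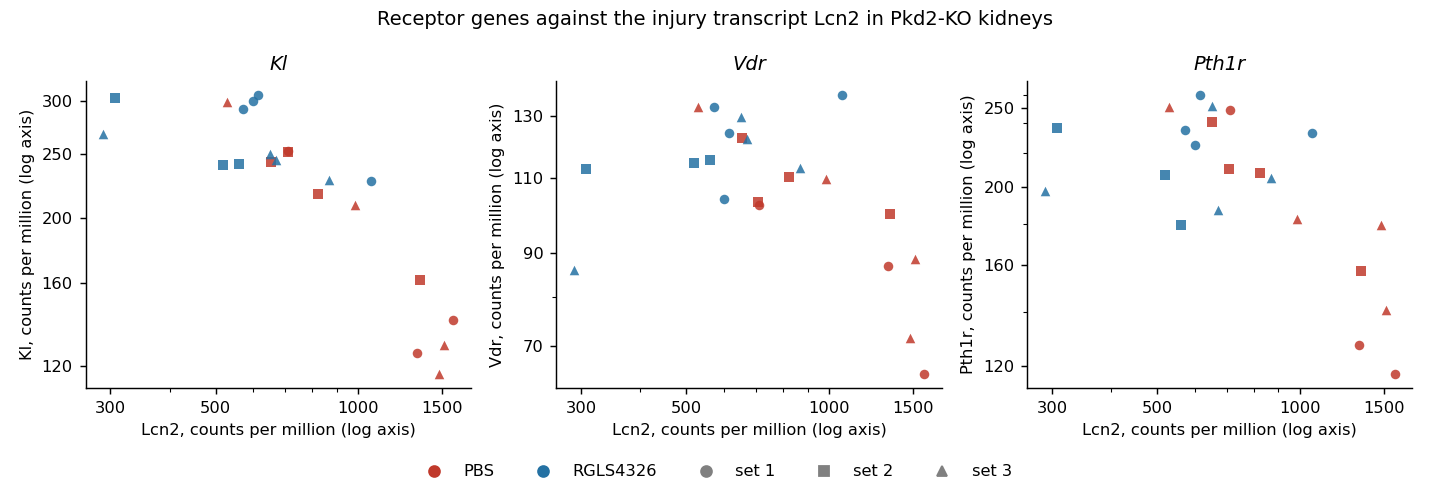
Kl, Vdr and Pth1r (vertical, CPM, log axes) against Lcn2 (horizontal, CPM, log axis) in 11 PBS and 11 RGLS4326 kidneys, 1 point per mouse, with the shape giving the library-number set. The 5 PBS mice with the most Lcn2, from 1331.0 CPM upwards, have the lowest Kl of all, from 116.5 to 161.7 CPM.

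By deviations from group means over the 34 mice, Slc35d1 (r = 0.88), Slc5a8 and Enpep were among the genes most like Kl, out of 14182 genes compared. Those most like Pth1r were Fitm1 (r = 0.90), Acsm1, Ggt1, Ush1c and Lrpap1, and those most like Vdr were AI317395 (r = 0.79), Stk32b, Ugt1a10, Slc1a1 and Slc2a5. The enzyme genes had other neighbours. Cyp27b1 was most like Zfp1 (r = 0.79), Lpar1, Gnal, Chmp1b and Pnrc1, and Cyp24a1 most like Hoxc10 (r = 0.62), Ncald, Twsg1, Gm1966 and Taf1b. Within single groups these values differed in size. Slc35d1 with Kl was at 0.959 in PBS and 0.811 in RGLS4326 but 0.135 in UNT mice, and Stk32b with Vdr at 0.949 in PBS and 0.797 in UNT but 0.284 in RGLS4326 mice. For the genes named beside Kl, Vdr and Pth1r the range was 0.844 to 0.973 in PBS, 0.135 to 0.802 in UNT and 0.284 to 0.943 in RGLS4326 mice, and whether the groups differ was not tested. These are descriptions over libraries that share scaling and cell mixture.

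Marker genes of the nephron segments moved with the receptor genes. In PBS vs UNT all 10 proximal tubule markers were lower (median log2 change -2.75), as were all 6 of the distal convoluted tubule (-1.96) and all 5 of the thick ascending limb (-1.20), beside a median of 0.04 over all tested genes. The summed level of the proximal markers ranged from 24280 to 36190 CPM in UNT, from 1545 to 5751 in PBS and from 2932 to 6025 in RGLS4326 kidneys. For the distal convoluted tubule markers it ranged from 1935 to 2953, from 390.9 to 743.9 and from 609.9 to 879.2 CPM, and for the thick ascending limb from 6686 to 10350, from 2560 to 4865 and from 3762 to 5314. In UNT kidneys Kap alone averaged 18330 of the proximal mean of 29590 CPM. Umod averaged 5018 of the thick ascending limb mean of 7777 CPM, so both sums largely follow a single gene. All 6 collecting duct markers, all 7 measured macrophage markers, all 6 fibroblast markers and all 5 tubular injury markers were higher in PBS vs UNT. Macrophage markers summed to between 105.4 and 182.7 CPM in UNT and between 816.2 and 2606 in PBS kidneys, fibroblast markers to between 602.3 and 1498 and between 3184 and 6613. Collecting duct markers summed to between 595.6 and 962.3 in UNT and between 1018 and 2478 in PBS, and injury markers to between 25.8 and 41.0 and between 878 and 1990. Of 5 podocyte markers, 4 were lower and 1 higher.
In RGLS4326 vs PBS, 4 of 10 proximal, 3 of 6 distal convoluted tubule, 2 of 5 thick ascending limb, 4 of 5 podocyte and 1 of 6 fibroblast markers were higher and none of these lower. In the same comparison 4 of 6 collecting duct, 4 of 7 macrophage and 1 of 5 injury markers were lower and none higher. Over all tested genes 15.3% were higher and 18.5% lower in this comparison, and 43.1% and 39.0% in PBS vs UNT. With the percentage of no-gene reads as a covariate 145 of 15644 genes were called in RGLS4326 vs PBS. The part of these markers in the changes of Kl, Vdr and Pth1r was not tested.

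The other genes of mineral control were taken from 8 lists with 74 genes, of which 68 were tested. In PBS vs UNT, 26 rose and 34 fell, with a median log2 change of -0.23, and in RGLS4326 vs PBS, 19 rose and 7 fell, with a median of 0.06. In RGLS4326 vs UNT 24 were higher and 33 lower. Together 60, 26 and 57 of the 68 were called, beside 82.1%, 33.8% and 77.7% of all tested genes. These shares in either direction are near the background. By direction, 43.1% of all tested genes were higher and 39.0% lower in PBS vs UNT, beside 26 and 34 of the 68. In RGLS4326 vs PBS 15.3% were higher and 18.5% lower, beside 19 and 7 of the 68. No set test was run, so the counts below describe the lists and are no result about them. All adjusted p below are from edgeR. Of the genes named, Adcy6, Arrb2, Atp2b4, Cubn, Egf, Fgfr1, Gnas, Lctl, Slc34a1 and Spp1 share exon bases with another gene, and their counts are uncertain to that extent.

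Of 13 tested genes that supply vitamin D or partner its receptor, 9 fell and 2 rose in PBS vs UNT, and 6 rose and 1 fell in RGLS4326 vs PBS. Lrp2, which encodes megalin, and Cubn, which encodes cubilin, are endocytic receptors that bring filtered vitamin D and its binding protein into tubule cells. Lrp2 was at 2710 ± 383 CPM in UNT, 449 ± 211 in PBS and 701 ± 127 in RGLS4326 kidneys. Its log2 change was -2.59 (adjusted p = 6.16e-15) in PBS vs UNT and 0.64 (0.00984) in RGLS4326 vs PBS. Cubn changed by -2.13 (adjusted p = 7.63e-14) and 0.64 (0.00654). Rxra, the partner that Vdr binds DNA with, fell by 0.28 on the log2 scale in PBS vs UNT (adjusted p = 0.00168) and was at 0.04 (0.691) in RGLS4326 vs PBS.

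Of 13 tested genes around FGF23 and klotho, 8 rose and 3 fell in PBS vs UNT, and 1 rose and 2 fell in RGLS4326 vs PBS. The FGF receptors, which pair with klotho, did not move one way. Fgfr4 fell from 50.9 ± 6.17 to 17.2 ± 3.26 CPM (log2 -1.56, adjusted p = 1.31e-17), while Fgfr1 rose from 75.63 ± 6.997 to 99.2 ± 10.4 (log2 0.39, adjusted p = 9.29e-08). Neither passed in RGLS4326 vs PBS (0.20 and 0.00, adjusted p = 0.0828 and 0.964). Egr1, an immediate early gene that FGF signalling is known to induce among many other stimuli, rose from 10.8 ± 4.22 to 93.2 ± 24.3 CPM (log2 3.11, adjusted p = 1.95e-18). It did not pass in RGLS4326 vs PBS (log2 -0.03, adjusted p = 0.888). Lctl, a klotho family member, fell by 2.56 on the log2 scale in PBS vs UNT (adjusted p = 9.21e-16) and rose by 0.80 in RGLS4326 vs PBS (0.00320). Galnt3, which glycosylates FGF23, rose by 0.63 (adjusted p = 1.45e-06) and Fam20c, which phosphorylates it, by 0.99 (4.39e-10). Fam20c then fell by 0.53 in RGLS4326 vs PBS (adjusted p = 0.00258), and Galnt3 was at -0.18 (0.168).
Fgf23 itself was below the filter and has no test. It had 0 reads in all 12 UNT libraries, which allows up to 3 reads in their total, from 1 to 17 in each of the 11 PBS libraries (49 in all), and from 0 to 4 in RGLS4326 libraries, 7 of 11 of which had a read (12 in all). Its reads were thus few and their groups differed in depth, with 488624803 reads in genes over the UNT, 377125816 over the PBS and 290574310 over the RGLS4326 libraries. Phex and Dmp1, bone genes that restrain FGF23, were also below the filter, with 123 and 188 reads over all libraries. Fgf23 was singled out after its values were seen.

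Of 8 tested genes of parathyroid hormone signalling, 4 rose and 3 fell in PBS vs UNT, and 2 fell in RGLS4326 vs PBS. Gnas, the stimulatory G protein downstream of Pth1r, was at 771 ± 44.9, 754 ± 54.9 and 692.5 ± 80.7 CPM in UNT, PBS and RGLS4326 kidneys. It did not pass in PBS vs UNT (log2 -0.03, adjusted p = 0.608) or RGLS4326 vs PBS (-0.12, 0.109), but was lower in RGLS4326 vs UNT (-0.16, 0.0173). Adcy6, an adenylyl cyclase, fell by 0.58 on the log2 scale in PBS vs UNT (adjusted p = 4.81e-10), and Casr, the calcium-sensing receptor, by 0.82 (6.42e-05). Arrb2, a beta-arrestin that uncouples such receptors, rose by 1.63 in PBS vs UNT (adjusted p = 4.49e-15) and fell by 0.33 in RGLS4326 vs PBS (0.0308). Prkaca, a catalytic subunit of protein kinase A, rose by 0.19 (adjusted p = 0.00857) and fell by 0.21 (0.0158). Pth had 0 reads in all 34 libraries.

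**Figure D4:**
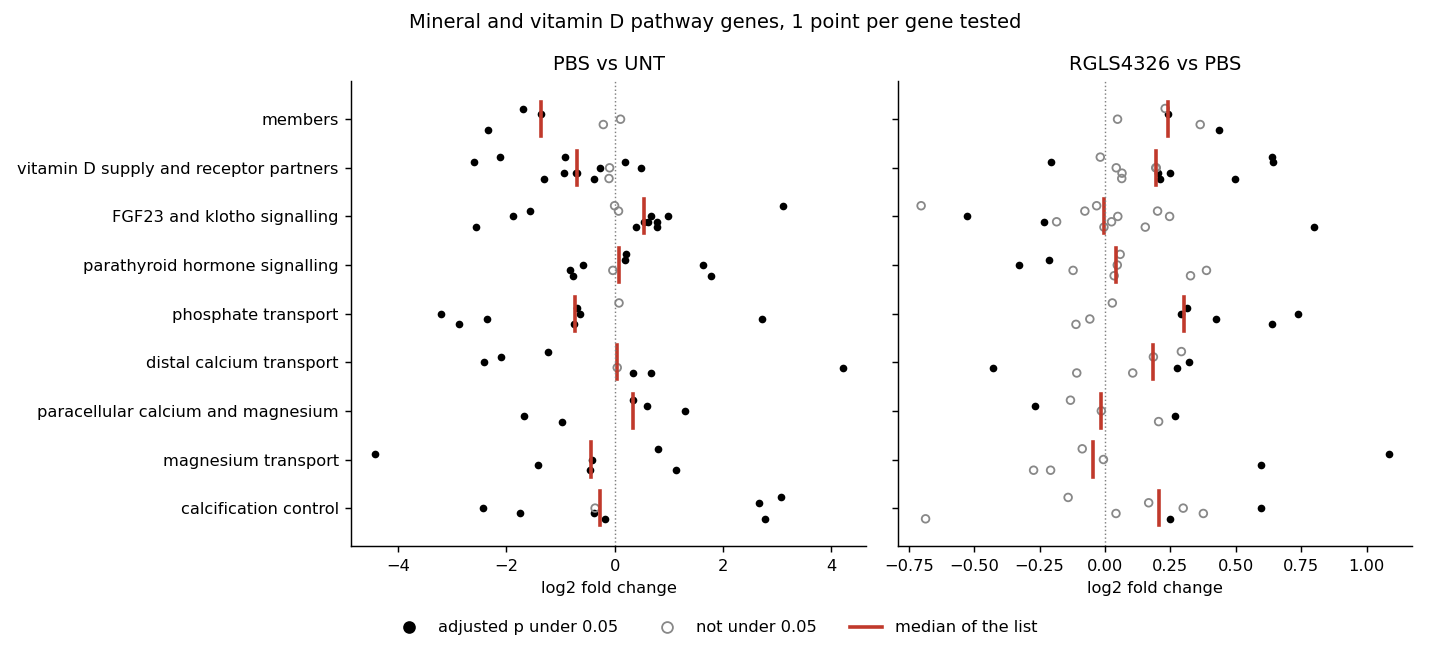
Log2 fold change (horizontal, a separate scale for each panel) of the tested genes of each list in PBS vs UNT and RGLS4326 vs PBS, 1 point per gene, filled where the edgeR adjusted p was under 0.05, with a red line at the median of the list. The row named members holds Kl, Vdr, Pth1r, Cyp27b1 and Cyp24a1, and genes of calcium transport spread from -2.41 for Calb1 to 4.21 for Trpv6 in PBS vs UNT.

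Parathyroid hormone and FGF23 are known to withdraw phosphate transporters from the proximal tubule. Of 8 tested genes of phosphate transport 6 fell and 1 rose in PBS vs UNT, and 5 rose and none fell in RGLS4326 vs PBS. Slc34a1, the main phosphate carrier of the proximal tubule, was at 4722 ± 498 CPM in UNT, 646 ± 300 in PBS and 1005 ± 219 in RGLS4326 kidneys. It changed by -2.87 (adjusted p = 1.17e-15) and then 0.64 (0.0116) on the log2 scale. Slc34a3, the second renal carrier, changed by -3.21 (adjusted p = 1.93e-17) and 0.74 (0.00522). Slc34a2, the carrier of intestine and lung, went the other way in PBS vs UNT, from 6.01 ± 1.23 to 39.4 ± 7.64 CPM (log2 2.72, adjusted p = 9.02e-18). It did not pass in RGLS4326 vs PBS (-0.06, adjusted p = 0.774). Xpr1, the phosphate exporter, changed by -0.65 (adjusted p = 6.71e-09) and 0.29 (0.0113).

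Calcitriol is known to induce genes of distal calcium transport. Of 7 tested, 3 rose and 3 fell in PBS vs UNT, and 2 rose and 1 fell in RGLS4326 vs PBS. The calcium-binding carriers fell: Calb1 (calbindin) from 792 ± 104 to 149 ± 22.8 CPM (log2 -2.41, adjusted p = 3.06e-18) and S100g from 976 ± 218 to 226 ± 75.8 (-2.11, 1.71e-14). The entry channels rose: Trpv6 from 2.52 ± 0.399 to 46.8 ± 14.8 CPM (log2 4.21, adjusted p = 8.28e-22) and Trpv5 from 31.7 ± 6.14 to 50.2 ± 6.98 (0.66, 3.69e-07). Trpv6 then fell by 0.43 in RGLS4326 vs PBS (adjusted p = 0.0303), and Calb1 rose by 0.32 (0.0491), as did Atp2b4, a calcium pump, by 0.28 (0.0449). S100g (0.18, adjusted p = 0.352) and Trpv5 (-0.11, 0.423) did not pass.

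Among 5 claudin genes of paracellular calcium and magnesium passage, 3 rose and 2 fell in PBS vs UNT, and 1 rose and 1 fell in RGLS4326 vs PBS. Cldn10 fell by 1.68 (adjusted p = 1.42e-16) and Cldn2, the leaky claudin of the proximal tubule, by 0.97 (1.08e-10), whereas Cldn16 of the thick limb rose by 0.59 (1.39e-07). Cldn10 was at 0.27 (adjusted p = 0.0493) in RGLS4326 vs PBS, Cldn16 at -0.27 (0.0214) and Cldn2 at 0.20 (0.115). Of 6 magnesium genes 2 rose and 4 fell in PBS vs UNT, and 2 rose in RGLS4326 vs PBS. Egf, a hormone of the distal tubule that opens magnesium channels, fell from 3032 ± 782 to 140 ± 117 CPM (log2 -4.44, adjusted p = 2.19e-13) and was at 297 ± 111 in RGLS4326 kidneys (1.09, 0.0135). The channel kinase Trpm7 changed by -1.42 (adjusted p = 2.04e-11) and 0.60 (0.00415), and the carrier Slc41a1 rose by 0.80 in PBS vs UNT (6.72e-13).

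Of 8 genes that control calcification, 3 rose and 4 fell in PBS vs UNT, and 2 rose in RGLS4326 vs PBS. Spp1 (osteopontin) rose from 1941 ± 315 to 12360 ± 2406 CPM (log2 2.67, adjusted p = 5.57e-20) and Mgp (matrix Gla protein) from 114 ± 23.0 to 962 ± 110 (3.08, 7.48e-25). Neither passed in RGLS4326 vs PBS (0.17 and -0.14, adjusted p = 0.293 and 0.231). Abcc6, a transporter whose loss is known to cause calcification, fell by 2.43 (adjusted p = 5.54e-17) and rose by 0.60 (0.00549). Enpp1, which makes the calcification inhibitor pyrophosphate, fell by 0.19 (adjusted p = 0.0428) and rose by 0.25 (0.0280). When the fit adjusted for the percentage of no-gene reads, 0 of the 68 genes passed in RGLS4326 vs PBS by edgeR (23 at an unadjusted p under 0.05), against 26 without it and 29 by DESeq2.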

How the data were processed

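Kidney RNA libraries of 34 mice were analysed, grouped as the labels give them. The authors prepared stranded mRNA libraries, sequenced 75-base paired reads, trimmed them (Trim Galore), mapped them with STAR to GRCm38 and counted uniquely mapped reads per gene with HTSeq (version 0.6.1). The deposited tables hold raw counts, 1 table per mouse with gene symbols, neither normalized nor pooled. The annotation and the strand setting were not given in the sources used here. Rows with the totals of unassigned reads (5.82% to 14.87% in no gene) were left out of library sizes and tests.

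The quasi-likelihood F test in edgeR (version 4.0.16, R 4.3.3) was run on the TMM-scaled counts of all 34 libraries with 3 groups and no covariate, after filterByExpr left 15644 genes. P-values were two-sided, adjusted by Benjamini-Hochberg over all tested genes and called under 0.05. The procedure was also run on simulated counts with the same spread for every gene, which does not cover the wide spread of the enzyme genes. No labels say that mice came from separate litters, so p-values measure the spread between these samples. No 2 libraries were identical (0 of 176 pairs within groups). Correlations used scipy 1.17.1, log2(CPM + 1) and 100000 resamples.

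The 5 genes and all lists were chosen with earlier results of these data known. From each list the text names the 2 genes with the smallest p in PBS vs UNT, the 2 with the smallest in RGLS4326 vs PBS and 14 genes listed beforehand, except Phex, which is named as not tested; neighbours were the 5 genes with the highest r and a mean of at least 1 CPM. Some genes that this rule names for Kl are not reported here. Alternatives were DESeq2 (version 1.42.0), other scalings, no filter, the set, sex-linked expression or the percentage of no-gene reads as covariate, a replicate block and each set alone. Leaving out a set or a single library and centring on sets were added after seeing the data.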

Additional observations from a re-analysis of the deposited data

How the results depend on the processing

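The falls of Kl, Vdr and Pth1r in PBS vs UNT and RGLS4326 vs UNT kept their direction and call under DESeq2, both other scalings, no filter, every covariate, the replicate block, each set alone and each set or single mouse left out. In RGLS4326 vs PBS, 0 of the 5 genes were called when the percentage of no-gene reads was a covariate (log2 Kl 0.38, Vdr 0.27), in set 1 (0.71 and 0.57), set 2 (0.27 and 0.083) or set 3 (0.39 and 0.16) alone, or without set 1 (0.32 and 0.11), and 1 was called without set 2 (Kl at 0.54, while Vdr at 0.34 was not). By edgeR those 5 counts of 0 stood beside 3, 3, 0, 0 and 1 genes with p under 0.05 before adjustment. The cause was not tested; that covariate left 145 of 15644 genes called against 5280, and sets 1, 2 and 3 alone called 54 of 15737, 4065 of 15944 and 0 of 15676 (2826 with p under 0.05 before adjustment in set 3, by edgeR). Leaving out single mice gave 1 to 3 called genes, with Vdr at 0.19 to 0.29, Kl at 0.38 to 0.51 and Pth1r at 0.18 to 0.28. The 26 pathway genes called in RGLS4326 vs PBS became 0 with that covariate, 1, 15 and 0 in sets 1, 2 and 3 alone (17 at an unadjusted p under 0.05 in set 3), 11, 14 and 10 without sets 1, 2 and 3, and 17 to 30 without single mice.

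The enzyme genes, never called, changed sign in some fits, except Cyp24a1 in RGLS4326 vs PBS (0.14 with the no-gene covariate, 0.18 to 0.58 without single mice, 0.36 as reported). Cyp24a1 in PBS vs UNT was 0.32 with the no-gene covariate, 0.19 in set 1 alone, 0.053 without set 3 and -0.43 to 0.14 without single mice (0.14 without UNT mouse 10). In RGLS4326 vs UNT it was -0.29 in set 3 alone, -0.014 without set 1 and -0.028 to 0.50 without single mice. Cyp27b1 in PBS vs UNT was -0.10 in set 3 alone, -0.01 without set 2 and -0.02 to 0.27 without single mice. In RGLS4326 vs UNT it was -0.13 in set 3 alone, -0.026 without set 1 and -0.071 to 0.31 without single mice. In RGLS4326 vs PBS it was -0.001 with the no-gene covariate, -0.31 in set 2 alone, -0.032 in set 3 alone, -0.14 without set 1, -0.048 with the replicate block, and -0.18 to 0.16 without single mice.

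The groups share replicate numbers, but same-numbered mice of different groups did not deviate together (mean r -0.002 over 33 pairs, lowest -0.41). Mice of the same set in different groups were at a mean r of only 0.01, so this does not settle whether the numbers pair mice. The replicate block moved no other sign and no call of the 5 genes. It called 59, 25 and 58 pathway genes against 60, 26 and 57. The 6 correlations that passed became 8 by Spearman and 7 without the 2 mice farthest from the median, which count 1 pair in UNT mice and 1 in RGLS4326 mice, respectively.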

Other observations

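Chga, a granin gene of endocrine cells, stood apart in a pair of PBS kidneys. It was at 56.9 CPM in PBS mouse 2 and 51.3 CPM in PBS mouse 11, and at most 0.725 CPM in the other 32 libraries. Pth had 0 reads in both, as in all 34 libraries, and Gcm2, the other parathyroid marker, had 1 read in 1 RGLS4326 library. Chga was below the filter on low counts, has no test, and was singled out after its values were seen. In these mice Kl was at 140.5 and 128.7 CPM, and both are among the 5 PBS mice with the most Lcn2.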
